A study of Mus musculus with 16 samples.

Results

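Macrophages that lacked progranulin were compared with wild-type macrophages after both had been edited at Mitf, Tfe3 and Tfeb. The 8 libraries set against each other were chosen by their labels from the 16 of the series, 4 of Grn knockout cells with the edit (GrnKO TKO) and 4 of wild-type cells with the edit (WT TKO). TKO is the submitters' abbreviation for the edit of all 3 genes. The cells were bone-marrow-derived macrophages, grown from frozen stocks of 12-week-old male Grn-/- or Grn+/+ mice. Mice of both genotypes had a C57Bl/6J background and carried a knock-in that the labels give as hTfRmu/hu. Cas9 ribonucleoprotein with 1 guide for each of the 3 genes was delivered by nucleofection, the cells were kept in M-CSF at 50 ng/mL, and RNA was taken 10 days later. The other 8 libraries, 4 of GrnKO Rosa26 and 4 of WT Rosa26 macrophages, received a guide to the Rosa26 locus as an editing control and are used here only to show where the response to Grn loss differed. Per the series design each of the 4 batches held 1 animal of each group, so every GrnKO TKO library has a WT TKO library of the same batch. The edited cells were a pool and not a clone, and the share of cells that lost each of the 3 proteins is not given in the sources used here.

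Progranulin, the product of Grn, is a secreted glycoprotein that is carried to the lysosome and cleaved there into granulins. It supports lysosomal enzymes and lipid turnover, and its loss causes frontotemporal dementia in heterozygous people and a lysosomal storage disease in homozygous people. MITF, TFE3 and TFEB are the MiT/TFE transcription factors, which enter the nucleus when lysosomes are stressed or nutrients are scarce and switch on lysosomal and autophagy genes through a short E-box called the CLEAR element. The comparison therefore asks what the loss of Grn still changes in macrophages whose MiT/TFE factors have been targeted.

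Libraries were 3′ tag libraries with molecular identifiers, and they held 18387630 to 28511950 estimated counts in GrnKO TKO and 16246705 to 21463730 in WT TKO macrophages. Control-edited libraries held 28431639 to 32969630 in GrnKO Rosa26 and 7069527 to 22469456 in WT Rosa26 macrophages, the lowest being WT Rosa26 of batch 1. All 20 macrophage identity genes that were listed passed the filter on low counts in these cells. Their summed level ran from 11879 to 12859 CPM (counts per 1000000 after scaling) in GrnKO TKO and from 13967 to 14792 CPM in WT TKO macrophages. Most marker lists of other cells were low. Stromal markers summed to at most 6.48 and 8.03 CPM in the GrnKO TKO and WT TKO libraries, mast cell and basophil markers to at most 1.73 and 1.38 CPM, and Mcpt4 and Tpsab1 were at 0 in all 8. The 11 erythroid and megakaryocyte markers summed to 528 to 695 CPM in GrnKO TKO and 819.96 to 945 CPM in WT TKO macrophages. Nearly all of that was Pf4, at 612 CPM on average in GrnKO TKO and 879 CPM in WT TKO macrophages, while the other 10 averaged under 1 CPM in each group and Hba-a1 was at 0 in all 8. Neutrophil markers summed to 12.1 to 15.1 CPM in GrnKO TKO and 15.7 to 20.1 CPM in WT TKO macrophages, and dendritic cell markers to 2.17 to 2.35 CPM in GrnKO TKO and 1.45 to 2.11 CPM in WT TKO macrophages. The sex-linked RNA of 6 of these 8 libraries went against the label of male mice. Xist, which is made from the inactive X chromosome of female cells, stood at 193, 244 and 205 CPM in GrnKO TKO macrophages of batches 1, 2 and 3 and at 208, 217 and 199.8 CPM in WT TKO macrophages of batches 1, 2 and 4. Y-linked genes were high instead in GrnKO TKO macrophages of batch 4 (211 CPM in sum) and WT TKO macrophages of batch 3 (205 CPM), and WT TKO macrophages of batch 2 held both signals (51.6 CPM of Y-linked genes), as did WT Rosa26 macrophages of batch 2 (212 CPM of Xist, 58.9 CPM of Y-linked genes). Rosa26 libraries matched in genotype and batch had the same pattern, so cells of separate animals, cells of 1 animal split between the edits and cells of pooled animals cannot be told apart here. Within batches 2, 3 and 4 the paired GrnKO TKO and WT TKO libraries differed in sex-linked RNA, and only those of batch 1 were alike.

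Grn itself had 45.2, 56.1, 51.5 and 40.7 CPM in GrnKO TKO macrophages, against 2522, 3169, 3125 and 3224 CPM in WT TKO macrophages. Every GrnKO TKO library was far below every WT TKO library (log2 change -5.96 ± 0.13, adjusted p = 4.16e-16), as the genotype labels say, although which part of the gene the allele lacks is not given in the sources used here. Mitf, Tfe3 and Tfeb did not pass the test between the edited genotypes. Mitf averaged 171 ± 13.6 CPM in GrnKO TKO and 159.9 ± 19.7 CPM in WT TKO macrophages (SD, n = 4 each here and below), with a log2 change of 0.10 ± 0.09 (SE here and below). Tfe3 averaged 166 ± 29.0 CPM in GrnKO TKO and 170.1 ± 27.0 CPM in WT TKO macrophages (log2 change -0.03 ± 0.17). Tfeb averaged 59.1 ± 13.4 CPM in GrnKO TKO and 70.7 ± 7.41 CPM in WT TKO macrophages (log2 change -0.27 ± 0.12). The genotypes overlapped in all 3. A 3′ tag does not read the guide site, so these levels say nothing about how well each gene was cut. Tfec, the fourth member of the family and not targeted, had 7.17, 5.94, 8.94 and 8.54 CPM in GrnKO TKO macrophages, against 6.03, 4.29, 4.83 and 4.99 CPM in WT TKO macrophages. Its log2 change of 0.60 passed the test (adjusted p = 0.0388), although the lowest GrnKO TKO library lay below the highest WT TKO library. The Tfec call was lost without GrnKO TKO of batch 1, 3 or 4 or WT TKO of batch 2, 3 or 4 (adjusted p up to 0.166).

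Of 15385 genes tested with edgeR's quasi-likelihood test, 767 (4.99%) differed between GrnKO TKO and WT TKO macrophages at an adjusted p under 0.05. Of these, 390 (2.53%) rose and 377 (2.45%) fell. Most changes were small: the median absolute log2 change of the called genes was 0.48, and 97 of them passed 2-fold, 55 upward and 42 downward. In 747 of the 767 the direction was the same in all 4 batches. The calls rest on these same libraries, so that count is not separate support for them, and its share over all genes tested is not given. In 548 of the 767 the libraries of the genotypes did not overlap, against 1296 non-overlapping genes (8.42%) among all tested, 707 higher in GrnKO TKO (4.6%) and 589 lower (3.83%). The number called depended on single libraries. It was 314 without GrnKO TKO of batch 2, 386 without GrnKO TKO of batch 4, 278 without WT TKO of batch 2, 309 without WT TKO of batch 3 and 474 without WT TKO of batch 4, and 345 when batch was not in the model. Genes past 2-fold numbered 57 without GrnKO TKO of batch 2 and 56 without WT TKO of batch 2. All 767 kept their sign in each of those fits, which reuse the libraries behind the calls and are not separate support for them. A call said below to be lost is therefore one whose adjusted p passed 0.05, not one that turned. With the 3 TKO libraries of clear Y-linked signal left out, together with the Rosa26 libraries that matched them, and no batch term, 50 genes were called (34 higher, 16 lower), and of each gene list named below at most 2 members rose and at most 1 fell. With the Y-linked level as a covariate and all libraries kept, 765 were called.

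In control-edited macrophages the same loss of Grn changed 6858 genes (44.6%), 3548 upward (23.1%) and 3310 downward (21.5%). Counts of list members called in Rosa26 cells, given below, stand against these shares. Most TKO calls were shared with it: 644 of the 767 TKO calls (84.0%) were also called in the same direction in Rosa26 cells, which is 9.39% of the Rosa26 calls. TKO and Rosa26 libraries matched in genotype and batch shared their sex-linked pattern and may come from the same animals. The shared calls are therefore not independent agreement. The fit had no term for animal and treated all libraries as independent. Of those 644, 528 had a smaller change in TKO than in Rosa26 macrophages. The test of the difference itself, the change in TKO cells minus the change in Rosa26 cells, called 2067 genes (13.4%), 893 with a higher value in TKO cells (5.8%) and 1174 with a lower one (7.63%). It called 192 of the 644, and in each of the 192 the change was the smaller one in TKO cells. For the remaining 452 shared calls a difference in size did not pass the test. The count of 2067 was 1252 without GrnKO TKO of batch 4 and 1206 without WT TKO of batch 4. A further 115 TKO calls were not called in Rosa26 cells, and 8 were called there in the opposite direction.

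**Figure D1:**
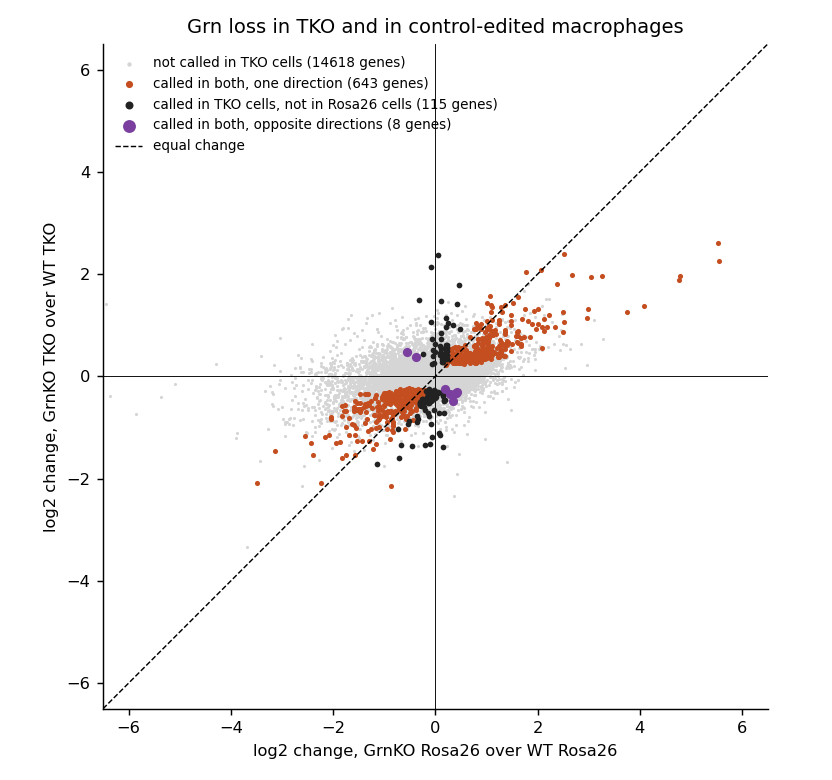
Log2 change with Grn loss in TKO macrophages (vertical axis) against that in Rosa26 macrophages (horizontal axis), 1 point a gene, for all tested genes but Grn; the dashed line marks equal change. Genes called in both in the same direction (643 without Grn) lie mostly between the horizontal axis and the dashed line, and the 8 genes called in opposite directions lie close to the origin.

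Part of the acid pump of the lysosome was higher in GrnKO TKO macrophages. Among 18 subunits of the V-ATPase, the proton pump that acidifies lysosomes, 7 rose and none fell (0 called lower), and the median log2 change was 0.22, against 0.00 over all genes tested. In Rosa26 macrophages 16 of the 18 rose, with a median of 0.58. Atp6v0a1, a subunit of the membrane sector, had 154, 145, 168 and 159 CPM in GrnKO TKO macrophages, against 137, 112, 129.7 and 95.4 CPM in WT TKO macrophages. All 4 GrnKO TKO libraries were higher than all 4 WT TKO libraries (log2 change 0.42 ± 0.08, adjusted p = 0.00636). Atp6v1d, of the central stalk, averaged 256 ± 25.5 CPM in GrnKO TKO and 199 ± 9.84 CPM in WT TKO macrophages (log2 change 0.36 ± 0.07, adjusted p = 0.00747). Atp6v0d1, which joins the stalk to the membrane sector, averaged 67.7 ± 5.01 CPM in GrnKO TKO and 53.4 ± 0.976 CPM in WT TKO macrophages (log2 change 0.34 ± 0.07, adjusted p = 0.00818). Neither overlapped between genotypes. The Atp6v0d1 call was lost without GrnKO TKO of batch 2 (adjusted p up to 0.0524). Atp6v0d2, a form of the same subunit typical of osteoclasts, had the largest change of the 18 but also the widest spread, with 37.5, 69.3, 63.1 and 56.9 CPM in GrnKO TKO macrophages, against 29.1, 24.9, 37.1 and 15.9 CPM in WT TKO macrophages. The genotypes stayed apart (log2 change 1.13 ± 0.26, adjusted p = 0.0349). The Atp6v0d2 call was lost without GrnKO TKO of batch 2, 3 or 4 or WT TKO of batch 2, 3 or 4 (adjusted p up to 0.137). The count of called subunits was 2 without GrnKO TKO of batch 2, 4 without GrnKO TKO of batch 4, 3 without WT TKO of batch 2, WT TKO of batch 3 or the batch term, and 4 without WT TKO of batch 4, while the median stayed at 0.20 to 0.23.

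Lysosomal hydrolases were mixed. Of 50 listed, 8 rose, 3 fell and 39 did not pass the test, with a median log2 change of 0.05. In Rosa26 macrophages 32 of the same 50 rose and 7 fell, where 23.1% of all genes tested rose and 21.5% fell. Gla, the α-galactosidase that removes galactose from glycolipids, had 314, 363, 289 and 325 CPM in GrnKO TKO macrophages, against 247, 249, 229.9 and 254 CPM in WT TKO macrophages. No library of either genotype crossed into the range of the other (log2 change 0.40 ± 0.07, adjusted p = 0.00315). Scpep1, a serine carboxypeptidase, averaged 109 ± 21.6 CPM in GrnKO TKO and 73.0 ± 9.83 CPM in WT TKO macrophages (log2 change 0.57 ± 0.10, adjusted p = 0.00302). Lipa, the acid lipase that frees cholesterol from its esters, averaged 484 ± 17.9 CPM in GrnKO TKO and 379 ± 14.3 CPM in WT TKO macrophages (log2 change 0.35 ± 0.06, adjusted p = 0.00332). Naglu, which degrades heparan sulfate, rose by a log2 of 0.39 ± 0.09 (adjusted p = 0.0134), with 1 WT TKO library above the lowest GrnKO TKO library. The Naglu call was lost without GrnKO TKO of batch 2 or WT TKO of batch 2 or 3 (adjusted p up to 0.0813). The 3 that fell were Ctsc, the cathepsin that activates granule serine proteases (log2 change -0.77 ± 0.14, adjusted p = 0.00461), Hgsnat, another enzyme of heparan sulfate breakdown (log2 change -0.43 ± 0.09, adjusted p = 0.0118), and Ctsh, an aminopeptidase cathepsin (log2 change -0.32 ± 0.08, adjusted p = 0.0357). Ctsc had 60.7, 49.5, 48.4 and 48.8 CPM in GrnKO TKO macrophages, against 98.7, 62.1, 88.4 and 109 CPM in WT TKO macrophages. The library of batch 1 was the highest of the GrnKO TKO set and still below the lowest WT TKO library. The Hgsnat call was lost without WT TKO of batch 3 (adjusted p up to 0.0643). The Ctsh call was lost without GrnKO TKO of batch 1, 2 or 4 or WT TKO of batch 1, 2 or 3 (adjusted p up to 0.173). Called rises among the hydrolases numbered 3 without GrnKO TKO of batch 2, 5 without GrnKO TKO of batch 4, 3 without WT TKO of batch 2 or of batch 3, and 4 without the batch term. None of 34 lysosomal membrane proteins passed the test in TKO cells by edgeR (0 called, 9 at an unadjusted p under 0.05, median log2 change 0.10), while DESeq2 called 1 and limma 0. With no filter on low counts, or with genes of 5 CPM or more alone, edgeR called 1 of the 34 higher. In Rosa26 cells 25 of them rose, with a median of 0.41.

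**Figure D2:**
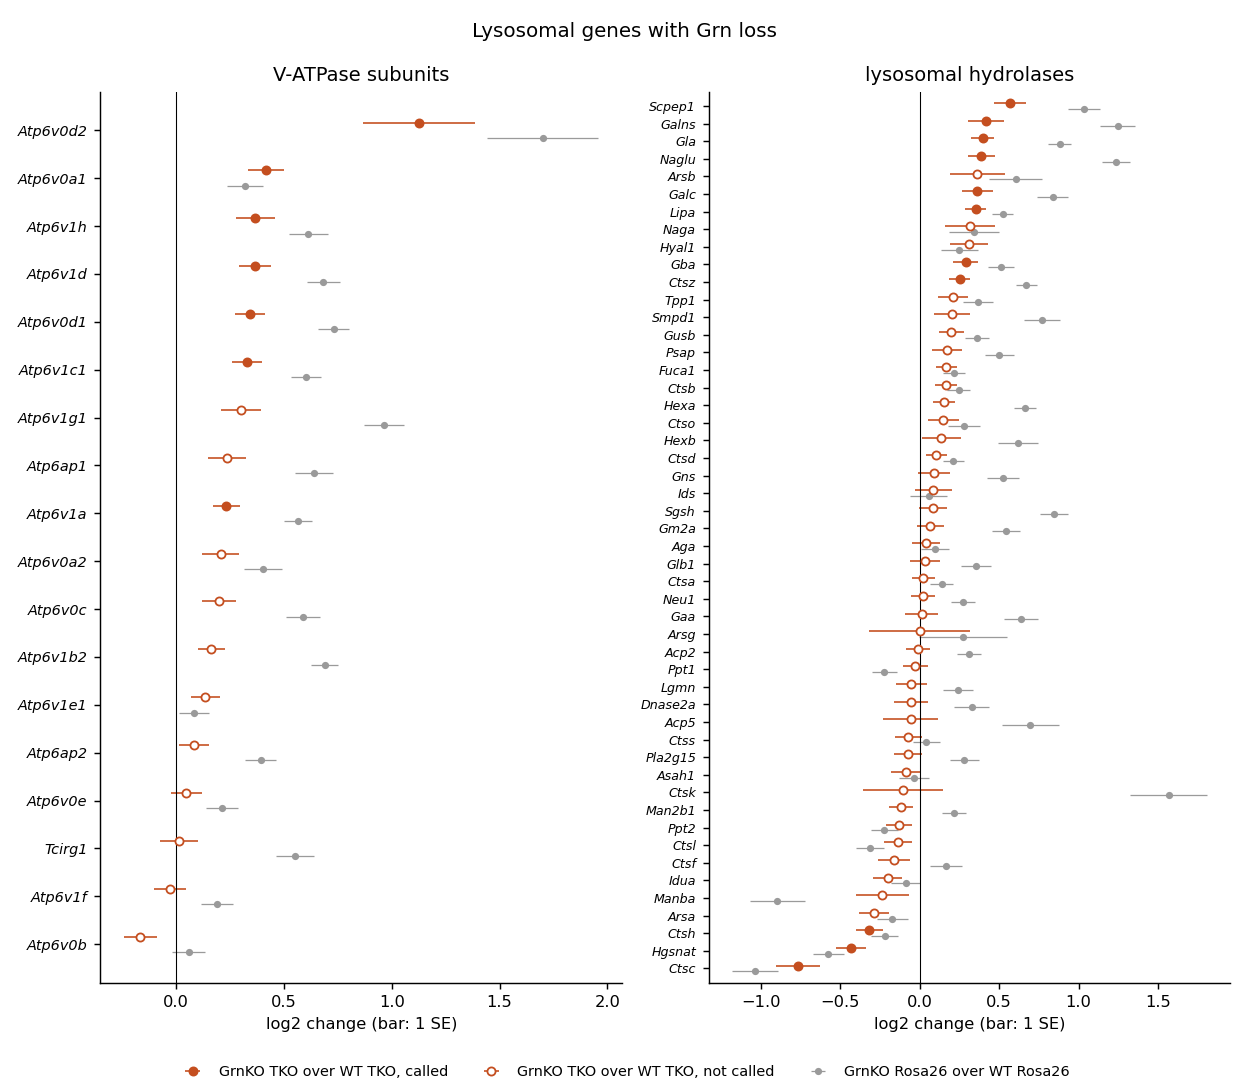
Log2 change with Grn loss (bars, 1 SE of the fit) for the 18 V-ATPase subunits and the 50 lysosomal hydrolases, in TKO macrophages (filled where called, open where not) and in Rosa26 macrophages (grey), ordered by the TKO value. The 7 called V-ATPase subunits all lie right of 0, while the hydrolases run from Scpep1 at 0.57 to Ctsc at -0.77 in TKO cells.

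Genes known as direct MiT/TFE targets also moved in the edited cells. Of 27 such genes 7 rose and 1 fell (median log2 change 0.15), against 21 and 3 in Rosa26 macrophages (median 0.52). Rragd, a Rag GTPase that MiT/TFE factors induce as part of mTORC1 feedback, had 71.7, 66.0, 57.8 and 73.2 CPM in GrnKO TKO macrophages, against 51.5, 49.7, 48.3 and 49.9 CPM in WT TKO macrophages. GrnKO TKO libraries were all higher (log2 change 0.43 ± 0.08, adjusted p = 0.00590), and the rise was smaller than in Rosa26 cells (difference -0.68, adjusted p = 0.00184). Gpnmb, a lysosomal glycoprotein of lipid-laden macrophages, had 1931, 2209.8, 2418 and 2114 CPM in GrnKO TKO macrophages, against 1645, 1678, 1533 and 1317 CPM in WT TKO macrophages. Here too the genotypes did not overlap (log2 change 0.50 ± 0.09, adjusted p = 0.00331), and the difference from the Rosa26 rise of 0.78 did not pass the test (log2 -0.28, adjusted p = 0.146). Hif1a, the oxygen-regulated transcription factor on the same list, fell (log2 change -0.30 ± 0.07, adjusted p = 0.0195). The Hif1a call was lost without GrnKO TKO of batch 2 or 3 or WT TKO of batch 2 or 3 (adjusted p up to 0.0966). Among 39 autophagy genes 3 rose and none fell (0 called lower). The 3 were Tecpr1, Calcoco1 and Tax1bp1. Without GrnKO TKO of batch 1, 2 or 4 or WT TKO of batch 2 or 3, or without batch in the model, 1 of the 39 rose, and 1 fell without WT TKO of batch 1. The Calcoco1 call was lost without GrnKO TKO of batch 1, 2, 3 or 4 or WT TKO of batch 1, 2 or 3 (adjusted p up to 0.219). The Tax1bp1 call was lost without GrnKO TKO of batch 1, 2 or 4 or WT TKO of batch 2, 3 or 4 (adjusted p up to 0.204). Tecpr1, which acts in autophagosome maturation at the lysosome, had the smallest p of the 3 and averaged 132 ± 16.6 CPM in GrnKO TKO and 85.9 ± 9.96 CPM in WT TKO macrophages (log2 change 0.62 ± 0.09, adjusted p = 0.000463). The count of called MiT/TFE targets that rose was 3 without GrnKO TKO of batch 2 and 4 without GrnKO TKO of batch 4, WT TKO of batch 2, WT TKO of batch 3 or the batch term.

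Promoters of 4 of these genes show where the E-box that MiT/TFE factors bind lies in each window. The 4 were chosen with earlier results of these data known and do not stand for all genes that rose. Each window runs from 250 bases before to 50 bases after the annotated start (RefSeq, GRCm38.p6, written 5′ to 3′ on the strand of the gene), and capitals mark CACGTG, its longer form TCACGTGA, and TCATGTGA in either orientation. Gla lies on the minus strand at chrX:134600956-134601255, Atp6v0d1 on the minus strand at chr8:105566015-105566314, Naglu on the plus strand at chr11:101069844-101070143 and Rragd on the plus strand at chr4:32982748-32983047.
Gla: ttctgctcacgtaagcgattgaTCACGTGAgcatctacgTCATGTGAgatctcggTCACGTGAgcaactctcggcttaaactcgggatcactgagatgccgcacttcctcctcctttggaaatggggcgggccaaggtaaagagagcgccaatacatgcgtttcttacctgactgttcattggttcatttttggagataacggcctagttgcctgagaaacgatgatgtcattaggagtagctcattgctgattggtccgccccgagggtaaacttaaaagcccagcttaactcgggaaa
Atp6v0d1: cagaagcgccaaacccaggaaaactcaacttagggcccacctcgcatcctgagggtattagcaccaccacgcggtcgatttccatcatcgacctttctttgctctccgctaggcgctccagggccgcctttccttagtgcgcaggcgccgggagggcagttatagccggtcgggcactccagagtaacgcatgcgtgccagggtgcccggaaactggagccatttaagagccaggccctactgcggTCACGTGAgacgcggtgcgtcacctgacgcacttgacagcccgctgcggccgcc
Naglu: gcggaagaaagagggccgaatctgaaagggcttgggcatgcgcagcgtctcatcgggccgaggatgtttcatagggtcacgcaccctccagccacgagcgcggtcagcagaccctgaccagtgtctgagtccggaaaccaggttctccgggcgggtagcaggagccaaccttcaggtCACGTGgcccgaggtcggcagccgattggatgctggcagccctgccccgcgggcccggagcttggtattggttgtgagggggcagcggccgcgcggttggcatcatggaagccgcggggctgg
Rragd: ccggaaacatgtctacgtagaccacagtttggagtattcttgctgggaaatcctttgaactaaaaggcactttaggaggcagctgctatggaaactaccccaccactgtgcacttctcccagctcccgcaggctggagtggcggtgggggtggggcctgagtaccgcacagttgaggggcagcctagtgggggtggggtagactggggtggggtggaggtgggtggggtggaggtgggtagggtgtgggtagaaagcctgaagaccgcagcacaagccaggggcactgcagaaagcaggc
The Gla window holds TCACGTGA at 2 places and TCATGTGA at 1, the Atp6v0d1 window holds TCACGTGA once across the start, the Naglu window holds CACGTG alone, and the Rragd window holds none of the 3 strings (0 matches). Both strands of every window of a gene were searched, and a match in any window counted for the gene. Of the 15385 genes tested, 10529 were matched by symbol to a window. These held 300 of the 390 that rose in GrnKO TKO macrophages and 271 of the 377 that fell. CACGTG was present in 11.6% of the 10529, 12.7% of the 300 and 9.59% of the 271. On the lists the 4 genes come from, it was present in 27.5% of 40 hydrolases, 33.3% of 12 V-ATPase subunits and 36.4% of 22 MiT/TFE targets. TCACGTGA, which contains CACGTG, was present in 2.18% of all, 3.33% of the risen and 1.85% of the fallen. TCATGTGA was present in 1.04% of all, 4% of the risen and 0.738% of the fallen. These shares describe the letters in the windows and are not a test of binding.

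Several lipid-handling genes rose. Of 24 genes known from disease-associated microglia and lipid-associated macrophages 7 rose and 1 fell (median log2 change 0.20), and of 18 genes of lipid uptake and droplets 6 rose and 1 fell (median 0.16). On the first list 4 rose without GrnKO TKO of batch 2, WT TKO of batch 2 or the batch term, and the 1 fall, of the signalling adaptor Tyrobp (log2 change -0.23 ± 0.07, adjusted p = 0.0459), was lost without GrnKO TKO of batch 1, 2, 3 or 4 or WT TKO of batch 2, 3 or 4 (adjusted p up to 0.203). On the second list 3 rose without the batch term. Fabp5, a fatty acid binding protein, had 772, 1055, 841 and 813 CPM in GrnKO TKO macrophages, against 444, 503, 649 and 354 CPM in WT TKO macrophages. GrnKO TKO libraries were all higher (log2 change 0.87 ± 0.16, adjusted p = 0.00673). Fabp4, its relative in adipocytes and macrophages, averaged 17.8 ± 3.74 CPM in GrnKO TKO and 9.19 ± 2.15 CPM in WT TKO macrophages (log2 change 0.96 ± 0.14, adjusted p = 0.000562) and did not overlap either. The Fabp4 rise in TKO cells was well short of the 2.34 seen in Rosa26 cells (difference -1.37 on the log2 scale, adjusted p = 0.000338). Mgll, the lipase that splits monoglycerides, was low throughout, with 0.717, 1.52, 1.68 and 1.18 CPM in GrnKO TKO macrophages, against 0.603, 0.311, 0.177 and 0.272 CPM in WT TKO macrophages. The genotypes were apart (log2 change 1.88 ± 0.34, adjusted p = 0.00306), and the change was 4.77 in Rosa26 cells. Dgat1, which makes triglyceride, averaged 58.3 ± 4.61 CPM in GrnKO TKO and 44.5 ± 5.55 CPM in WT TKO macrophages (log2 change 0.39 ± 0.08, adjusted p = 0.00587). Abcg1, the LXR target that exports cholesterol, averaged 73.6 ± 8.42 CPM in GrnKO TKO and 46.8 ± 9.22 CPM in WT TKO macrophages (log2 change 0.67 ± 0.13, adjusted p = 0.00481). In contrast Olr1, the receptor for oxidised low-density lipoprotein, fell to 4.25, 2.47, 3.42 and 2.89 CPM in GrnKO TKO macrophages, against 9.32, 6.84, 8.84 and 6.36 CPM in WT TKO macrophages. The highest GrnKO TKO library was below the lowest WT TKO library (log2 change -1.27 ± 0.17, adjusted p = 0.000235).

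Of 24 cholesterol synthesis genes 3 rose in the edited cells and none fell (0 called lower), where 2.53% of all genes tested rose. An unadjusted p under 0.05 was reached by 12 of the 24, against 2978 of all 15385 tested. A value above 0 was found in 19 of the 24, against 7818 of all tested. The median log2 change was 0.17, where 22 rose in Rosa26 macrophages with a median of 0.59. Insig1, the sterol sensor partner that holds SREBP in the endoplasmic reticulum, averaged 33.2 ± 2.53 CPM in GrnKO TKO and 24.1 ± 1.20 CPM in WT TKO macrophages (log2 change 0.46 ± 0.08, adjusted p = 0.00340). Acat2, the cytosolic thiolase at the head of the pathway, averaged 17.1 ± 0.695 CPM in GrnKO TKO and 12.4 ± 1.19 CPM in WT TKO macrophages (log2 change 0.48 ± 0.10, adjusted p = 0.00708). Sc5d, a desaturase near its end, averaged 95.2 ± 6.88 CPM in GrnKO TKO and 74.7 ± 4.26 CPM in WT TKO macrophages (log2 change 0.35 ± 0.08, adjusted p = 0.0134). In none of the 3 did the genotypes overlap. The difference from the Rosa26 change passed the test in all 3 (log2 -0.62, -0.46 and -0.58, adjusted p = 0.00309, 0.0305 and 0.00292). The Sc5d call was lost without GrnKO TKO of batch 3 or WT TKO of batch 2 or 3 (adjusted p up to 0.0793). The Acat2 difference was lost without GrnKO TKO of batch 1 or 4 or WT TKO of batch 2 or 4 (adjusted p up to 0.0862).

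The largest rise among genes with at least 5 CPM was that of Pakap, an A-kinase anchoring gene annotated under a pair of overlapping identifiers. The first, ENSMUSG00000038729, had 171, 106, 210.3 and 142 CPM in GrnKO TKO macrophages, against 37.8, 36.0, 46.0 and 29.1 CPM in WT TKO macrophages. The lowest GrnKO TKO library, of batch 2, was well above the highest WT TKO library (log2 change 2.07 ± 0.13, adjusted p = 8.41e-08). Its second identifier, ENSMUSG00000089945, gave a log2 change of 2.03; reads of the same locus can be split between them. The rise was 2.07 in Rosa26 cells, with a difference of 0.00 ± 0.18 (SE) between the backgrounds. Igf2bp3, an RNA-binding protein of fetal tissue, Fbln5, an elastic fibre protein, Serpinb1a, an inhibitor of neutrophil proteases, and Shisa9, an auxiliary protein of glutamate receptors, were low but apart in every library, with log2 changes of 1.54, 1.39, 1.36 and 1.25 in TKO cells. In the same order the changes in Rosa26 cells were 1.62, 1.36, 1.29 and 1.30. In each of these 4 a difference between the backgrounds did not pass the test.

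Cd28, the costimulatory receptor of T cells, rose in both backgrounds, but not equally. It had 17.7, 26.7, 28.4 and 27.2 CPM in GrnKO TKO macrophages, against 10.4, 9.32, 10.02 and 9.99 CPM in WT TKO macrophages. The GrnKO TKO library of batch 1 was the lowest of its group and still above all WT TKO libraries (log2 change 1.31 ± 0.14, adjusted p = 1.67e-05). The rise in Rosa26 cells was 2.98, and the difference of -1.67 passed the test (adjusted p = 4.06e-05). Cd4, the other lymphocyte marker that was called, averaged 1.88 ± 0.294 CPM in GrnKO TKO and 0.970 ± 0.309 CPM in WT TKO macrophages (log2 change 0.96 ± 0.22, adjusted p = 0.0145). The Cd4 call was lost without GrnKO TKO of batch 3 or WT TKO of batch 3 (adjusted p up to 0.0671). The 14 lymphocyte markers listed summed to 27.1 to 39.9 CPM in GrnKO TKO and 15.4 to 17.7 CPM in WT TKO macrophages. Most of that was Cd28 itself, at 25 CPM on average in GrnKO TKO and 9.94 CPM in WT TKO macrophages. The sum is therefore not separate from the Cd28 rise. Ighm averaged 6.7 CPM in GrnKO TKO and 4.17 CPM in WT TKO macrophages, while Cd3d, Cd3e and Cd3g each averaged under 1 CPM in both groups. Of the 14, 4 were tested, and 11 averaged under 1 CPM in GrnKO TKO and 12 in WT TKO cells. The part of lymphocytes in the Cd28 and Cd4 values was not tested. In bulk RNA, fewer or more cells of a type and less or more RNA per cell cannot be told apart, here or for any gene below. Cd80, a ligand of CD28 on antigen-presenting cells, rose as well (22.3 ± 3.50 CPM in GrnKO TKO and 12.7 ± 3.04 CPM in WT TKO macrophages; log2 change 0.81 ± 0.17, adjusted p = 0.00968). The Cd80 call was lost without WT TKO of batch 2 (adjusted p up to 0.0551).

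Itgb3 and Mfge8, which work together in the uptake of dead cells, both rose. Itgb3, the β3 integrin, had 7.72, 7.26, 7.89 and 7.32 CPM in GrnKO TKO macrophages, against 3.45, 2.86, 2.95 and 2.91 CPM in WT TKO macrophages. Spread within each genotype was small and the groups stood apart (log2 change 1.31 ± 0.15, adjusted p = 3.89e-05). Mfge8, the secreted bridge between phosphatidylserine and that integrin, had 127, 145, 205 and 134 CPM in GrnKO TKO macrophages, against 65.8, 74.6, 70.7 and 77.2 CPM in WT TKO macrophages. All GrnKO TKO libraries were higher (log2 change 1.06 ± 0.12, adjusted p = 5.87e-05). Both rose more in Rosa26 cells, by 2.01 for Itgb3 and 2.52 for Mfge8 (differences -0.70 and -1.46, adjusted p = 0.0293 and 5.18e-05). The Itgb3 difference was lost without GrnKO TKO of batch 1 or WT TKO of batch 1 or 4 (adjusted p up to 0.0700). Of the 18 scavenger and efferocytosis receptors tested 3 rose and none fell (0 called lower), with a median of 0.00. The iron exporter Slc40a1 averaged 43.9 ± 12.7 CPM in GrnKO TKO and 25.4 ± 5.25 CPM in WT TKO macrophages (log2 change 0.78 ± 0.11, adjusted p = 0.000238). The IgG receptor Fcgr4 averaged 20.4 ± 4.58 CPM in GrnKO TKO and 11.0 ± 2.09 CPM in WT TKO macrophages (log2 change 0.88 ± 0.12, adjusted p = 0.000219). Libraries of the genotypes did not overlap for either.

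**Figure D3:**
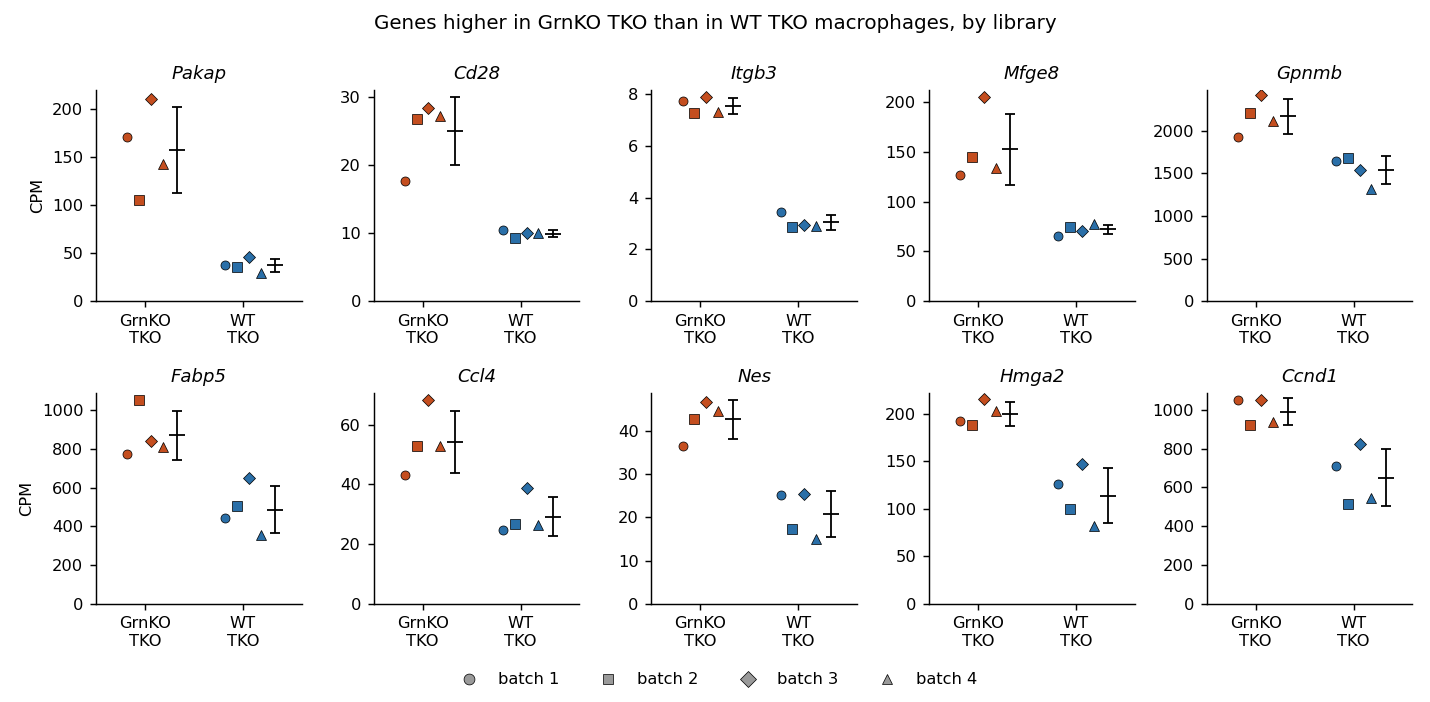
CPM in each library (symbols by batch) with the mean and SD of 4 libraries for 10 genes that were higher in GrnKO TKO (left) than in WT TKO macrophages (right). In every panel the 4 GrnKO TKO libraries lie above the 4 WT TKO libraries; the panel for Pakap shows ENSMUSG00000038729.

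Of 20 macrophage identity genes 4 fell and 2 rose in GrnKO TKO macrophages (median log2 change -0.11). The falls were Itgam, Lyz2, Adgre1 and Tyrobp, and the rises were Fcgr4, given above, and the transcription factor Maf (log2 change 0.30 ± 0.08, adjusted p = 0.0296). The Maf call was lost without GrnKO TKO of batch 1, 2, 3 or 4 or WT TKO of batch 2, 3 or 4 (adjusted p up to 0.153). Adgre1, the F4/80 antigen, had overlapping libraries (log2 change -0.37 ± 0.10, adjusted p = 0.0298), and its call was lost without GrnKO TKO of batch 2, 3 or 4 or WT TKO of batch 2, 3 or 4 (adjusted p up to 0.116). In each of the same 6 fits the list had 2 falls. Cx3cr1, the fractalkine receptor of monocytes and microglia, had 25.9, 17.8, 17.4 and 11.8 CPM in GrnKO TKO macrophages, against 41.7, 49.1, 38.3 and 77.2 CPM in WT TKO macrophages. The groups did not overlap, but WT TKO of batch 4 was well above the rest (log2 change -1.46 ± 0.32, adjusted p = 0.0312). The Cx3cr1 call was lost without GrnKO TKO of batch 2 or 3 or WT TKO of batch 2, 3 or 4 (adjusted p up to 0.108). In Rosa26 cells the change was -3.15, and the difference (log2 1.69, adjusted p = 0.0426) was lost without GrnKO TKO of batch 1, 2 or 3 or WT TKO of batch 1, 2 or 3 (adjusted p up to 0.0887). Ccr2, the CCL2 receptor of inflammatory monocytes, averaged 5.25 ± 0.558 CPM in GrnKO TKO and 11.1 ± 1.18 CPM in WT TKO macrophages (log2 change -1.08 ± 0.19, adjusted p = 0.00214). Itgam, the αM integrin that serves as complement receptor 3, had 607, 495, 457 and 529 CPM in GrnKO TKO macrophages, against 877, 684, 825 and 863 CPM in WT TKO macrophages. Every GrnKO TKO library was below every WT TKO library (log2 change -0.64 ± 0.12, adjusted p = 0.00393), and the fall in Rosa26 cells was the larger one (log2 -1.46, difference 0.82, adjusted p = 0.00451). Lyz2, the macrophage lysozyme, averaged 5018 ± 303 CPM in GrnKO TKO and 6564 ± 202 CPM in WT TKO macrophages (log2 change -0.39 ± 0.07, adjusted p = 0.00306), and no library crossed between genotypes.

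C-type lectin receptors, which sense fungal and mycobacterial sugars and dying cells, were among the genes that fell. Of 21 Toll-like and C-type lectin receptors 6 fell and none rose (0 called higher), with a median log2 change of -0.08. The 6 were Clec4n, Clec4e, Clec4a2, Clec4b1, Clec4d and Tlr2. Clec4n, also called dectin-2, had 132, 69.3, 78.9 and 65.1 CPM in GrnKO TKO macrophages, against 192, 255, 153 and 295 CPM in WT TKO macrophages. WT TKO libraries were all higher (log2 change -1.35 ± 0.27, adjusted p = 0.0189). The Clec4n call was lost without GrnKO TKO of batch 2 or WT TKO of batch 2, 3 or 4 (adjusted p up to 0.0839). Clec4a2 averaged 170.5 ± 27.6 CPM in GrnKO TKO and 296 ± 44.0 CPM in WT TKO macrophages (log2 change -0.79 ± 0.13, adjusted p = 0.00203). Clec4d averaged 558 ± 50.7 CPM in GrnKO TKO and 712 ± 26.5 CPM in WT TKO macrophages (log2 change -0.35 ± 0.07, adjusted p = 0.00475). Clec4e, the receptor Mincle, had a log2 change of -1.14 ± 0.24 (adjusted p = 0.0244). The Clec4e call was lost without GrnKO TKO of batch 2 or 4 or WT TKO of batch 2, 3 or 4 (adjusted p up to 0.106). The count of called receptors was 2 without GrnKO TKO of batch 2 or WT TKO of batch 3, and 3 without GrnKO TKO of batch 4, WT TKO of batch 2 or WT TKO of batch 4. These genes are close relatives, and the counting may have divided reads among them.

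Chemokine genes moved both ways. Of 23 chemokines and receptors 4 rose and 5 fell (median log2 change -0.09). The 4 rises were all CC chemokines, and the falls were Cxcl2, Cxcl14, Cxcl16, Ccr2 and Cx3cr1. Ccl4, an inflammatory chemokine that attracts monocytes and T cells, had 43.0, 52.8, 68.3 and 52.9 CPM in GrnKO TKO macrophages, against 24.7, 26.7, 38.9 and 26.3 CPM in WT TKO macrophages. The highest value of each genotype came from batch 3, and the groups did not overlap (log2 change 0.90 ± 0.09, adjusted p = 1.22e-05). Ccl3, its close relative, averaged 12.8 ± 1.22 CPM in GrnKO TKO and 6.49 ± 1.13 CPM in WT TKO macrophages (log2 change 0.98 ± 0.14, adjusted p = 0.000424). Ccl2, the monocyte attractant, had 138, 155, 163 and 142 CPM in GrnKO TKO macrophages, against 87.7, 62.1, 118 and 45.4 CPM in WT TKO macrophages. The WT TKO libraries were widely spread and all lower (log2 change 1.01 ± 0.21, adjusted p = 0.0208). The Ccl2 call was lost without GrnKO TKO of batch 2 or 4 or WT TKO of batch 2 or 4 (adjusted p up to 0.0934). Neither Ccl2 nor its relative Ccl12 (log2 change 1.14 ± 0.21, adjusted p = 0.00407) was called in Rosa26 cells (log2 0.35 and 0.21, adjusted p = 0.203 and 0.477), yet the difference between the backgrounds did not pass the test either (adjusted p = 0.163 and 0.0518). Ccl2 and Ccl12 are close relatives, as are Ccl3 and Ccl4, and the counting may have divided reads between them. Among the falls, Cxcl2, a neutrophil attractant, had 77.2, 36.3, 57.8 and 37.4 CPM in GrnKO TKO macrophages, against 104, 124, 153 and 123 CPM in WT TKO macrophages. GrnKO TKO libraries were all lower (log2 change -1.29 ± 0.23, adjusted p = 0.0105). Cxcl16, a membrane-bound chemokine that also takes up oxidised lipoprotein, averaged 104 ± 9.98 CPM in GrnKO TKO and 149.7 ± 12.6 CPM in WT TKO macrophages (log2 change -0.52 ± 0.08, adjusted p = 0.000771). Its libraries did not overlap between genotypes. Cxcl14 averaged 49.8 ± 10.7 CPM in GrnKO TKO and 77.7 ± 12.6 CPM in WT TKO macrophages (log2 change -0.65 ± 0.09, adjusted p = 0.000337). For Cxcl14, 1 GrnKO TKO library lay above the lowest WT TKO library, and GrnKO TKO was lower within each of the 4 batches.

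Apart from the chemokines above, which moved both ways, the listed cytokine, NF-kB target and complement genes that passed the test were lower, with 1 exception. Of 23 cytokines and NF-kB targets 5 fell and none rose (0 called higher), with a median log2 change of -0.26. The count was 1 without GrnKO TKO of batch 2, 3 without GrnKO TKO of batch 4, WT TKO of batch 2 or the batch term, 2 without WT TKO of batch 3 and 8 without GrnKO TKO of batch 1. Saa3, an acute-phase protein, had 88.3, 56.1, 39.96 and 52.9 CPM in GrnKO TKO macrophages, against 137, 229.9, 124 and 209 CPM in WT TKO macrophages. The groups did not overlap (log2 change -1.54 ± 0.27, adjusted p = 0.0102). The Saa3 call was lost without GrnKO TKO of batch 2 (adjusted p up to 0.0509). Ptgs2, the inducible cyclooxygenase, averaged 4.89 ± 0.463 CPM in GrnKO TKO and 9.07 ± 1.14 CPM in WT TKO macrophages (log2 change -0.89 ± 0.15, adjusted p = 0.00182). Arg1, the arginase of alternatively activated macrophages, had 6.07, 5.61, 5.21 and 4.47 CPM in GrnKO TKO macrophages, against 12.6, 14.9, 15.9 and 9.54 CPM in WT TKO macrophages. Again the GrnKO TKO libraries were all lower (log2 change -1.30 ± 0.13, adjusted p = 1.08e-05), and the fall was smaller than the -2.43 of Rosa26 cells (difference 1.13, adjusted p = 0.00096). It was the only called gene of 11 on the alternative activation list; 2 members fell without GrnKO TKO of batch 4. Of 17 complement genes 3 fell, C3, C1qa and Itgam, and 1 rose, Cd59a; 2 members rose without WT TKO of batch 1. C3, the central component, averaged 17.5 ± 3.28 CPM in GrnKO TKO and 36.0 ± 13.2 CPM in WT TKO macrophages (log2 change -0.98 ± 0.18, adjusted p = 0.00636). C1qa, which starts the classical pathway, averaged 758 ± 28.8 CPM in GrnKO TKO and 953 ± 56.7 CPM in WT TKO macrophages (log2 change -0.33 ± 0.07, adjusted p = 0.00914). Cd59a, which blocks the membrane attack complex, averaged 43.3 ± 7.44 CPM in GrnKO TKO and 28.2 ± 4.47 CPM in WT TKO macrophages (log2 change 0.61 ± 0.10, adjusted p = 0.00193). C1qa fell by less than in Rosa26 cells (difference 0.61, adjusted p = 0.000847).

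Of the other genes with the largest falls, F13a1, the transglutaminase subunit of factor XIII made by resident-type macrophages, had 22.6, 22.4, 12.6 and 21.6 CPM in GrnKO TKO macrophages, against 37.8, 55.9, 53.6 and 63.6 CPM in WT TKO macrophages. All GrnKO TKO libraries were lower, that of batch 3 the most (log2 change -1.42 ± 0.19, adjusted p = 0.00088). Kazald1, a secreted Kazal-type protein, averaged 5.44 ± 1.07 CPM in GrnKO TKO and 15.6 ± 1.34 CPM in WT TKO macrophages (log2 change -1.54 ± 0.18, adjusted p = 5.87e-05). Bst1, the ectoenzyme CD157, averaged 18.3 ± 3.25 CPM in GrnKO TKO and 40.6 ± 4.33 CPM in WT TKO macrophages (log2 change -1.15 ± 0.14, adjusted p = 0.000162). Slc13a3, a dicarboxylate carrier, averaged 13.3 ± 2.62 CPM in GrnKO TKO and 34.7 ± 16.6 CPM in WT TKO macrophages (log2 change -1.31 ± 0.22, adjusted p = 0.00422), with WT TKO of batch 4 at the top. In Rosa26 cells the changes of these 4 were -1.21, -1.74, -1.69 and -1.95, and none of the 4 differences between the backgrounds passed the test (smallest adjusted p = 0.0937).

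**Figure D4:**
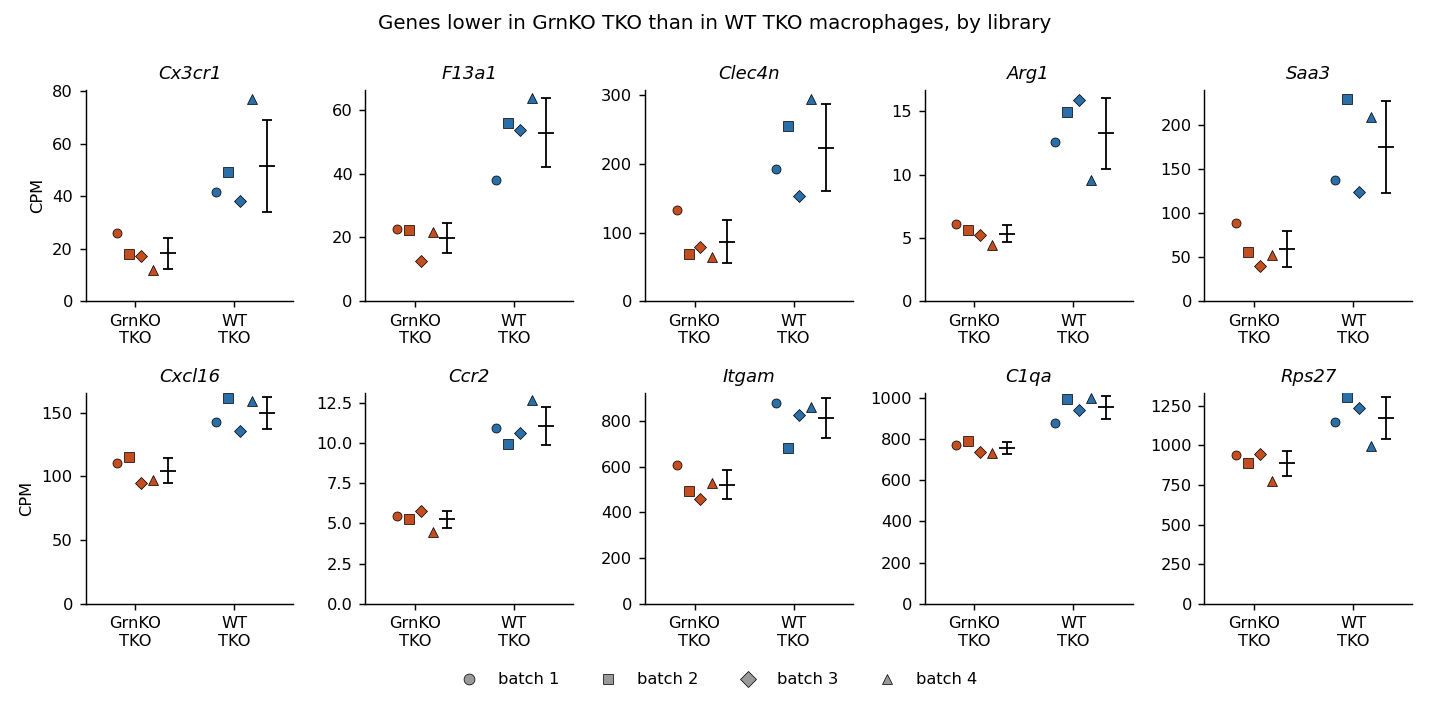
CPM in each library (symbols by batch) with the mean and SD of 4 libraries for 10 genes that were lower in GrnKO TKO (left) than in WT TKO macrophages (right). In every panel the 4 GrnKO TKO libraries lie below the 4 WT TKO libraries, and for Cx3cr1 and Clec4n the WT TKO libraries are the more spread.

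Cytosolic ribosomal protein genes were lower together. Of 79 tested 19 fell and none rose (0 called higher), 78 had a value below 0, and the median log2 change was -0.21, against 66 falls and a median of -0.43 in Rosa26 macrophages. They took 8.44%, 8.16%, 8.46% and 7.46% of the counts in GrnKO TKO macrophages, against 9.31%, 9.43%, 9.63% and 8.74% in WT TKO macrophages. The groups did not overlap (8.13 ± 0.467% in GrnKO TKO and 9.28 ± 0.385% in WT TKO macrophages, exact permutation test over libraries, two-sided p = 0.0286, the smallest that 4 against 4 can give without pairing). That test moved libraries across batches and did not use the pairing by batch. Rps27, of the small subunit, averaged 887 ± 80.02 CPM in GrnKO TKO and 1173 ± 132 CPM in WT TKO macrophages (log2 change -0.40 ± 0.07, adjusted p = 0.00191). Rps16 averaged 1018 ± 88.8 CPM in GrnKO TKO and 1293 ± 116 CPM in WT TKO macrophages (log2 change -0.35 ± 0.06, adjusted p = 0.00355). The number of called members was 11 without GrnKO TKO of batch 1, 2 without GrnKO TKO of batch 2, 5 without GrnKO TKO of batch 4, 2 without WT TKO of batch 2 or of batch 3, 6 without WT TKO of batch 4 and 1 without batch in the model, while the median was between -0.24 and -0.19 in those fits. With the libraries of Y-linked signal left out it was -0.12, and no member was called (0, also with 0 at an unadjusted p under 0.05). Many ribosomal protein genes have near-identical processed copies, which the counting may have given a share of their reads. Mitochondrially encoded genes took 0.374 ± 0.0622% of counts in GrnKO TKO and 0.378 ± 0.0281% in WT TKO macrophages. A difference did not pass the same unpaired test (exact permutation p = 0.857).

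Over all genes tested 2.53% rose and 2.45% fell. None of 75 nuclear oxidative phosphorylation genes was called by edgeR (0, with 8 at an unadjusted p under 0.05), DESeq2 called 2 and limma 0. Without WT TKO of batch 1, edgeR called 2 of them lower. None of 21 unfolded protein response genes was called by edgeR (0, with 6 at an unadjusted p under 0.05), DESeq2 called 3 and limma 1. For these genes edgeR called 2 higher with no filter on low counts and 1 higher without WT TKO of batch 1. Of 46 interferon-stimulated genes 2 rose, Rsad2 (log2 change 0.51 ± 0.13, adjusted p = 0.0307) and Gbp2 (log2 change 0.58 ± 0.16, adjusted p = 0.0459). The Rsad2 call was lost without GrnKO TKO of batch 2, 3 or 4 or WT TKO of batch 2, 3 or 4 (adjusted p up to 0.128). The Gbp2 call was lost without each of the 8 TKO libraries in turn (adjusted p up to 0.161). Of 36 cell cycle genes 2 rose, Ccnd1 and Mki67, with a median log2 change of 0.23. Within batches that median ran from -0.08 to 0.57, and it was 0.10 without GrnKO TKO of batch 2 or WT TKO of batch 2. The Mki67 call was lost without GrnKO TKO of batch 2, 3 or 4 or WT TKO of batch 2, 3 or 4 (adjusted p up to 0.216). Of 19 p53 targets 1 rose, Sesn2 (log2 change 0.48 ± 0.12, adjusted p = 0.0208). The Sesn2 call was lost without GrnKO TKO of batch 1 or 2 or WT TKO of batch 2 or 3 (adjusted p up to 0.114). Of 27 immediate early and heat shock genes 4 fell and none rose (0 called higher): Fos, Nr4a1, Nr4a2 and Dusp1. Fos, a subunit of the AP-1 factor, had 154, 112, 126 and 106 CPM in GrnKO TKO macrophages, against 214, 149, 183 and 127 CPM in WT TKO macrophages. The groups overlapped, but GrnKO TKO was below WT TKO within each of the 4 batches (log2 change -0.42 ± 0.08, adjusted p = 0.00306). Fos alone of these genes fell by the test without GrnKO TKO of batch 2 or 4 or WT TKO of batch 2 or 3 (1 fall each), and 1 gene rose without GrnKO TKO of batch 2. None was called when batch was not in the model (0, with 6 at an unadjusted p under 0.05). MHC class II and costimulation genes had the highest list median, 0.40 over 12 genes. That median was 0.02 over the 6 of at least 5 CPM, 0.04 with DESeq2 over 10 and 0.69 with no filter on low counts over 13, and within batches it ran from -0.17 to 0.53. The 2 called members were Cd28 and Cd80.

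**Figure D5:**
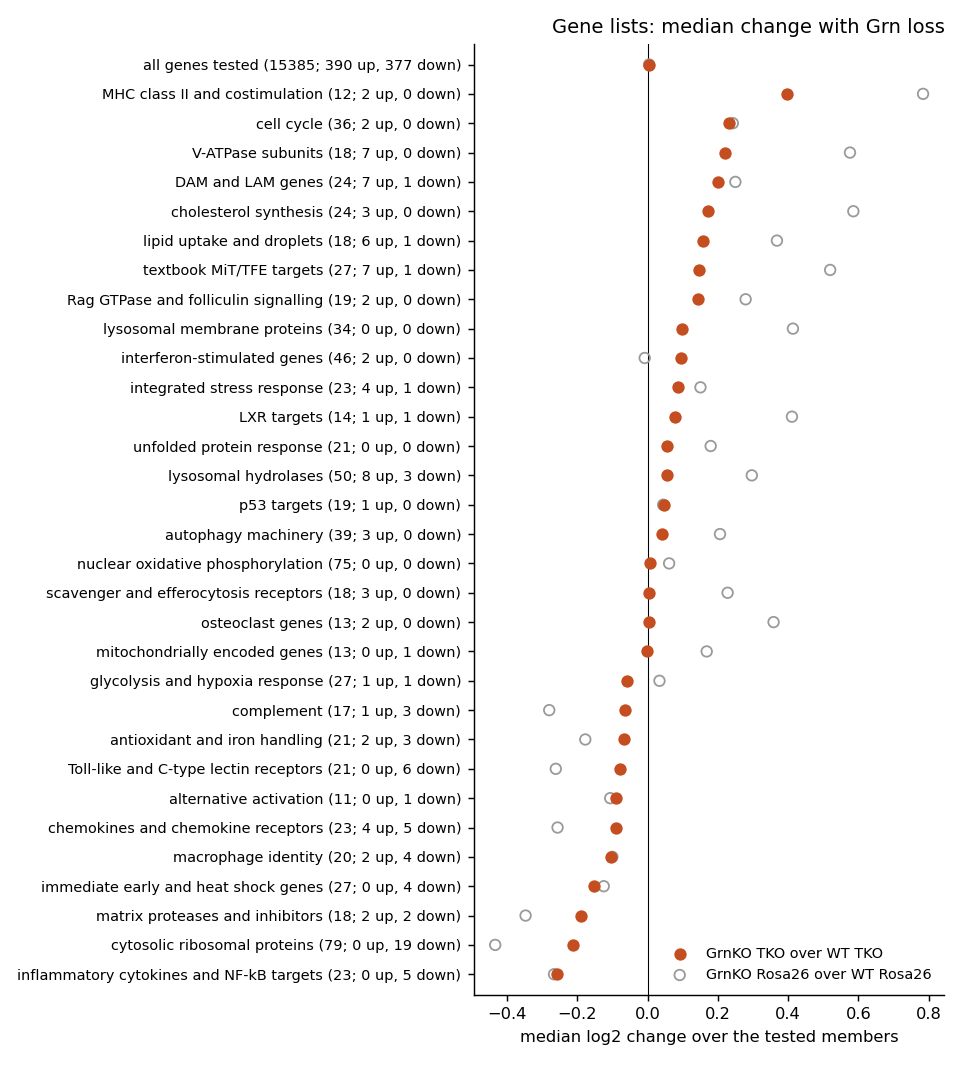
Median log2 change over the tested members of each gene list with at least 10 of them, for GrnKO TKO over WT TKO (filled) and GrnKO Rosa26 over WT Rosa26 (open), with the number tested and the TKO calls in brackets; DAM and LAM stand for disease-associated microglia and lipid-associated macrophages. Medians in TKO cells run from -0.26 for inflammatory cytokines and NF-kB targets to 0.40 for MHC class II and costimulation, a value that was 0.02 over its genes of 5 CPM or more.

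A smaller set of genes changed with Grn loss in TKO cells and not detectably in Rosa26 cells. Of the 115 calls of that kind, the difference between the backgrounds passed the test in 26, of which 13 rose and 13 fell in TKO macrophages; the genes named here, other than Ccnd1, Egfl7, Psat1 and Mmp19, were chosen after their values were seen. Nes, the intermediate filament nestin, had 36.4, 42.9, 46.8 and 44.7 CPM in GrnKO TKO macrophages, against 25.2, 17.4, 25.4 and 15.0 CPM in WT TKO macrophages. All GrnKO TKO libraries were higher (log2 change 1.07 ± 0.16, adjusted p = 0.00141), while the change was -0.08 in Rosa26 cells (difference 1.15, adjusted p = 0.00483). Hmga2, a chromatin protein of embryonic and stem cells, had 193, 188, 216 and 203 CPM in GrnKO TKO macrophages, against 126, 99.4, 147 and 81.7 CPM in WT TKO macrophages. The genotypes were apart (log2 change 0.85 ± 0.14, adjusted p = 0.00306). The Hmga2 difference from Rosa26 cells (0.74, adjusted p = 0.0230) was lost without GrnKO TKO of batch 4 or WT TKO of batch 4 (adjusted p up to 0.0582). Ccnd1, cyclin D1, had 1048, 923, 1052 and 935 CPM in GrnKO TKO macrophages, against 713, 516, 825 and 545 CPM in WT TKO macrophages. No WT TKO library reached the lowest GrnKO TKO library (log2 change 0.63 ± 0.11, adjusted p = 0.00208), the change in Rosa26 cells was -0.0043, and the difference was 0.63 (adjusted p = 0.0107). Egfl7, a secreted angiogenic factor, averaged 7.56 ± 1.67 CPM in GrnKO TKO and 2.78 ± 1.49 CPM in WT TKO macrophages (log2 change 1.49 ± 0.34, adjusted p = 0.0212). The Egfl7 call was lost without GrnKO TKO of batch 4 or WT TKO of batch 1, 3 or 4 (adjusted p up to 0.0695). Psat1, of serine synthesis, averaged 24.4 ± 2.39 CPM in GrnKO TKO and 16.5 ± 4.74 CPM in WT TKO macrophages (log2 change 0.59 ± 0.11, adjusted p = 0.00432), with 1 WT TKO library above the lowest GrnKO TKO library. The Psat1 difference (0.51, adjusted p = 0.0376) was lost without GrnKO TKO of batch 2 or 4 or WT TKO of batch 1, 2 or 4 (adjusted p up to 0.102). F11r, the junctional adhesion molecule A, fell (38.9 ± 6.59 CPM in GrnKO TKO and 65.4 ± 18.0 CPM in WT TKO macrophages; log2 change -0.72 ± 0.17, adjusted p = 0.0243; difference -0.89, adjusted p = 0.0240). The F11r call was lost without GrnKO TKO of batch 2 or 4 or WT TKO of batch 2 or 4 (adjusted p up to 0.108). Mmp19, a secreted metalloproteinase, fell as well (log2 change -0.33 ± 0.08, adjusted p = 0.0185). The Mmp19 call was lost without GrnKO TKO of batch 1 or 2 or WT TKO of batch 1 or 2 (adjusted p up to 0.0943).

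The 8 genes called in opposite directions changed little. Il17ra, the IL-17 receptor chain, Ptgs1, the constitutive cyclooxygenase, Enc1, Ivns1abp, Ensa and P2rx7, the ATP-gated channel of the inflammasome pathway, fell in TKO and rose in Rosa26 macrophages. Camk2d and Cdkal1 did the reverse. The 8 are named here for that pattern, after their values were seen. The largest TKO change among them was that of Ptgs1, -0.49 on the log2 scale beside 0.35 in Rosa26 cells (difference -0.84, adjusted p = 0.00366).

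Genes next to Grn were looked at because the knockout allele sits among them. Of 20 tested neighbours, 10 on each side in the RefSeq order (GRCm38.p6), 4 were called, against 4.99% of all genes tested and 63 of 1096 on chromosome 11. The 4 are named because there are so few. Fam171a2, next to Grn in that order, had 3.37, 4.95, 4.84 and 4.88 CPM in GrnKO TKO macrophages, against 1.86, 0.808, 0.707 and 1.23 CPM in WT TKO macrophages. The genotypes did not overlap (log2 change 1.97 ± 0.24, adjusted p = 7.74e-05), and the change was 2.67 in Rosa26 cells. Slc25a39, a mitochondrial glutathione carrier and the neighbour on the opposite side, averaged 189 ± 16.1 CPM in GrnKO TKO and 145 ± 6.16 CPM in WT TKO macrophages (log2 change 0.39 ± 0.07, adjusted p = 0.00475). Lsm12 (log2 change 0.49 ± 0.14, adjusted p = 0.0480) and Hexim1 (log2 change -0.31 ± 0.08, adjusted p = 0.0263) lay farther out. In Rosa26 cells Slc25a39 was called as well (log2 change 0.30, adjusted p = 0.00326). Lsm12 and Hexim1 were not called there (log2 change 0.22 and -0.01, adjusted p = 0.202 and 0.921). The Lsm12 call was lost without GrnKO TKO of batch 1, 2, 3 or 4 or WT TKO of batch 2, 3 or 4 (adjusted p up to 0.168). The Hexim1 call was lost without GrnKO TKO of batch 2, 3 or 4 or WT TKO of batch 2 or 4 (adjusted p up to 0.125). What the allele does to transcription across the locus was not tested.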

How the data were processed

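RNA was measured in 16 libraries as 3′ tags. The submitters' processing notes list the build GRCm39 and the tools R 4.5.1, edgeR 4.6.2, Salmon 1.10.1 and STAR 2.7.9a, with no roles. The authors deposited estimated counts per gene (56980 entries), rounded to 2 significant digits, so that a single value can be off by up to 5%. They also deposited a signal in counts per 1000000 of the scaled library size, and per the file headers library sizes and a scaling factor, a ratio close to 1. Estimated counts were rounded to whole numbers, filtered with filterByExpr, scaled by TMM and fitted with edgeR 4.0.16 (quasi-likelihood, robust) in R 4.3.3. Groups were the 4 of genotype and edit, with batch as a block, over all 16 libraries (9 residual degrees of freedom, biological coefficient of variation 12.0%). P-values were adjusted by Benjamini-Hochberg over 15385 genes, with calls at 0.05. Differences between backgrounds were the contrast of the 2 genotype effects. CPM in the text are counts over the TMM-scaled library size. Log2 changes come with their standard errors, CPM with standard deviations of 4 libraries.

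Batches come from the labels and pair the libraries. Deviations from the group means correlated by 0.0388 to 0.203 between GrnKO TKO and WT TKO libraries of 1 batch and by -0.174 to 0.194 between batches. Alternatives were RLE scaling, other filters, DESeq2 1.42.0, limma 3.58.1 on the deposited signal (pseudocount 0.5 or 1), no batch term, the 8 TKO libraries alone, a Y-linked covariate, and leaving out libraries. The fit was tested on simulated data. The comparison, gene lists and promoters were chosen with earlier results of these data known. Genes were named by rule: the targeted genes and Tfec, the 14 largest called rises and falls with a mean of 5 CPM or more and 1 direction in all batches, the 8 largest differences each way, and up to 4 called genes of smallest p per list and direction. Of these, those most useful to describe a list are printed, and further called members are named only in counts. Other genes are said to be chosen after their values were seen. A part of the rule for genes near Grn needs coordinates of GRCm39, which were not used here; neighbours were taken from the gene order of RefSeq. Promoter windows are RefSeq's, of GRCm38.p6. One item is not reported here.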

Additional observations from a re-analysis of the deposited data

Results flagged for a closer look

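In 17 of 204 sets of 4 libraries, 2 for each of 102 genes named in the text, the gap between the most extreme library and its nearest neighbour exceeded Dixon's 95% critical value as a share of the whole range. Chance alone gives about 1 such set in 20. The library standing apart was the high one of the GrnKO TKO set for these genes, each with the level of that library: Ctsc 60.7 CPM in batch 1 and Mcoln1 57.8 CPM in batch 3. The library standing apart was the low one of the GrnKO TKO set for these genes, each with the level of that library: Cd28 17.7 CPM in batch 1, F13a1 12.6 CPM in batch 3, C3 12.6 CPM in batch 3, Mcoln2 28.1 CPM in batch 1 and Fam171a2 3.37 CPM in batch 1. The library standing apart was the high one of the WT TKO set for these genes, each with the level of that library: Itgb3 3.45 CPM in batch 1, Ccl4 38.9 CPM in batch 3 and Cd4 1.43 CPM in batch 2. The library standing apart was the low one of the WT TKO set for these genes, each with the level of that library: Grn 2522 CPM in batch 1, Bst1 34.2 CPM in batch 3, Sc5d 68.4 CPM in batch 2, Cxcl14 59.0 CPM in batch 4, Nr4a1 44.0 CPM in batch 4, Nr4a2 99.9 CPM in batch 4 and Lsm12 30.7 CPM in batch 3.

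For 46 of the 102 genes the response to Grn loss in TKO cells differed from that in Rosa26 cells by the edgeR test of the difference (adjusted p from 3.22e-05 to 0.0460); the log2 change in TKO minus that in Rosa26 cells stands in brackets. Genes that rose in both backgrounds, and by less in TKO cells, were Cd28 (-1.67), Itgb3 (-0.70), Mfge8 (-1.46), Fabp4 (-1.37), Scpep1 (-0.47), Gla (-0.48), Naglu (-0.85), Atp6v0d1 (-0.39), Rragd (-0.68), Tecpr1 (-0.63), Fabp5 (-0.74), Abcg1 (-0.73), Insig1 (-0.62), Acat2 (-0.46), Sc5d (-0.58), Mgll (-2.89), Dgat1 (-0.54), Rsad2 (-0.58), Slc40a1 (-0.95), Adamts1 (-2.49), Fcgr4 (-0.73), Cd4 (-1.12), Dio2 (-3.28), Mcoln2 (-0.89) and Plxna1 (-0.71). Genes that fell in both, and by less in TKO cells, were Cx3cr1 (1.69), Arg1 (1.13), Hif1a (0.39), Tyrobp (0.29), Cxcl16 (0.37), Itgam (0.82), C1qa (0.61), Adgre1 (0.64), Fos (0.75), Nr4a1 (1.00), Dusp1 (0.69), Rps27 (0.46) and Pf4 (0.38). Genes called in no more than 1 of the backgrounds were Mitf (0.49), Egfl7 (1.81), Ccnd1 (0.63), Psat1 (0.51), Mmp19 (-0.38), Nes (1.15), Hmga2 (0.74) and F11r (-0.89). Rosa26 libraries also enter these differences. Without WT Rosa26 of batch 1 the test of the difference called 1447 genes, against 2067 with all libraries. With each TKO library left out in turn and every Rosa26 library kept, 30 of the 46 differences passed the test every time. The other 16 were lost without the libraries in brackets: Mitf (GrnKO TKO of batch 4 or WT TKO of batch 4), Egfl7 (WT TKO of batch 1 or 4), Itgb3 (GrnKO TKO of batch 1 or WT TKO of batch 1 or 4), Cx3cr1 (GrnKO TKO of batch 1, 2 or 3 or WT TKO of batch 1, 2 or 3), Scpep1 (GrnKO TKO of batch 1, 3 or 4 or WT TKO of batch 1 or 4), Hif1a (GrnKO TKO of batch 1 or WT TKO of batch 4), Fabp5 (GrnKO TKO of batch 1 or 3 or WT TKO of batch 1, 2, 3 or 4), Tyrobp (GrnKO TKO of batch 1, 3 or 4 or WT TKO of batch 1 or 4), Acat2 (GrnKO TKO of batch 1 or 4 or WT TKO of batch 2 or 4), Rsad2 (GrnKO TKO of batch 1, 2 or 3 or WT TKO of batch 1, 2 or 4), Cxcl16 (GrnKO TKO of batch 1 or 3 or WT TKO of batch 1, 2 or 3), Psat1 (GrnKO TKO of batch 2 or 4 or WT TKO of batch 1, 2 or 4), Mmp19 (GrnKO TKO of batch 1 or WT TKO of batch 1 or 2), Cd4 (GrnKO TKO of batch 4 or WT TKO of batch 2), Pf4 (GrnKO TKO of batch 1, 2 or 4 or WT TKO of batch 1, 2 or 4) and Hmga2 (GrnKO TKO of batch 4 or WT TKO of batch 4).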

How the results depend on the processing

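The 767 genes called between GrnKO TKO and WT TKO macrophages kept their direction under every alternative that gave them a value. Those fits reuse the libraries behind the calls, so the kept direction is not separate support for them. The number called varied. It was 345 (191 higher, 154 lower) with no replicate block, 488 (234 higher) with the 8 TKO libraries alone, 1208 (644 lower) with DESeq2, and 50 (34 higher, 16 lower) with libraries of Y-linked signal left out, which leaves 3 GrnKO TKO and 2 WT TKO libraries and no batch term. Leaving out single libraries gave 278 to 924 calls, 154 to 452 higher and 124 to 472 lower. Calls past 2-fold, 97 in all, were 39 among genes of 5 CPM or more, 35 without the Y-linked libraries, 56 and 35 with limma at a pseudocount of 0.5 and 1, and 56 to 109 with single libraries left out. Differences between the backgrounds, 2067 in all, numbered 910 with no replicate block, 388 without the Y-linked libraries and 1206 to 2633 with single libraries left out. Of 134 called genes that the naming rule or a later choice picked out, 75 were called with each TKO library left out, 81 under every other alternative that kept the 8 TKO libraries, and 26 without the Y-linked libraries. With single TKO libraries left out, the change of Mitf, which was not called, ran from -0.00304 to 0.16, and that of Tfe3, also not called, from -0.21 to 0.0924. The Fpr2 difference between backgrounds turned to -0.20 with limma at a pseudocount of 1. The cause was not tested. The share of counts in ribosomal protein genes was 8.15 ± 0.466% in GrnKO TKO and 9.30 ± 0.385% in WT TKO macrophages over tested genes alone. Low genes rest on few counts a library, and rounding to 2 digits adds to their error.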

Other observations

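The plexin and mucolipin genes and Dio2 were chosen after their values were seen, and all values here are given with no explanation. Plxna4 and Plxna1, receptors of semaphorins, which guide axons and also immune cells, rose in GrnKO TKO macrophages. Plxna4 had 7.72, 11.2, 8.94 and 10.2 CPM in GrnKO TKO macrophages, against 4.39, 4.41, 4.54 and 4.22 CPM in WT TKO macrophages. The WT TKO libraries lay close together and the GrnKO TKO libraries all above them (log2 change 1.11 ± 0.16, adjusted p = 0.000391), and the change in Rosa26 cells was 1.25. Plxna1 averaged 29.5 ± 3.85 CPM in GrnKO TKO and 18.3 ± 2.23 CPM in WT TKO macrophages (log2 change 0.69 ± 0.11, adjusted p = 0.000703), a smaller rise than in Rosa26 cells (difference -0.71, adjusted p = 0.00499). Of the endolysosomal calcium channels of the mucolipin family, Mcoln2 averaged 31.8 ± 2.44 CPM in GrnKO TKO and 23.7 ± 1.85 CPM in WT TKO macrophages (log2 change 0.42 ± 0.09, adjusted p = 0.00667), while Mcoln1, the member mutated in mucolipidosis, averaged 45.1 ± 8.55 CPM in GrnKO TKO and 34.5 ± 9.45 CPM in WT TKO macrophages with overlapping libraries (log2 change 0.42 ± 0.26, adjusted p = 0.427).

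Dio2, the deiodinase that makes active thyroid hormone, was low in every TKO library, with 1.38, 2.97, 2.89 and 2.03 CPM in GrnKO TKO macrophages, against 0.219, 0.621, 0.531 and 0.545 CPM in WT TKO macrophages. The genotypes did not overlap (log2 change 2.27 ± 0.24, adjusted p = 1.83e-05), and the rise was 5.55 in Rosa26 cells (difference -3.28, adjusted p = 3.22e-05). Adamts1, a secreted metalloproteinase, averaged 2.27 ± 0.820 CPM in GrnKO TKO and 0.944 ± 0.321 CPM in WT TKO macrophages (log2 change 1.25 ± 0.20, adjusted p = 0.00117), against a change of 3.74 in Rosa26 cells (difference -2.49, adjusted p = 4.39e-05). Slc11a1, the phagosomal metal transporter Nramp1, fell (75.7 ± 9.95 CPM in GrnKO TKO and 109 ± 14.7 CPM in WT TKO macrophages; log2 change -0.52 ± 0.08, adjusted p = 0.000743). Pf4, the platelet chemokine that macrophages also make, had 662, 693, 526 and 569 CPM in GrnKO TKO macrophages, against 822, 932, 943 and 817 CPM in WT TKO macrophages. All GrnKO TKO libraries were lower (log2 change -0.52 ± 0.09, adjusted p = 0.00129).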
